A study of Mus musculus with 10 samples.

Results

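The enzymes that feed and run the tricarboxylic acid (TCA) cycle and that carry the electrons of NADH between cytosol and mitochondrion were followed through RNA-sequencing libraries of mouse jejunum. The 32 genes were chosen by name from pathway membership, and all 32 were found among the 45707 entries of the table, each on a single line. The samples were jejunum of 5 Vil-Cre mice and 5 Vil-Cre:NDI1 mice, with 1 library per mouse. Both genotypes carried the Villin-Cre transgene, whose Villin promoter is active in the intestinal epithelium. The Vil-Cre:NDI1 mice also carried, at the ROSA26 locus, the yeast NADH dehydrogenase NDI1 behind a lox-stop-lox sequence. All mice were male littermates, 8 to 12 weeks old, that had been fasted overnight for 16 to 18 h and given water by gavage 1 h before the tissue was taken. The tissue was whole flushed jejunum, so muscle, immune and stromal cells, in which Villin-Cre is not active, contributed RNA beside the epithelium. In such bulk samples, fewer cells of a type and less RNA per cell cannot be told apart.

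In the TCA cycle, acetyl-CoA is condensed with oxaloacetate and oxidized to carbon dioxide, and most of the electrons released are handed to NADH, which is reoxidized by complex I of the respiratory chain. NDI1 does the same reoxidation without pumping protons. The pyruvate dehydrogenase (PDH) complex makes the acetyl-CoA from pyruvate and is switched off by kinases and on by phosphatases. Cytosolic NADH cannot cross the inner mitochondrial membrane, so its electrons enter through the malate-aspartate and glycerol 3-phosphate shuttles. The comparison of the genotypes asked whether transcripts of these enzymes differed when a second NADH oxidase was present in the epithelium.

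Between 10145705 and 12371530 reads were assigned to genes per library, and values are given as normalized counts, reads divided by a size factor that corrects each library's depth. NDI1 had 0 or 1 read in each Vil-Cre library and 1002 to 2659 reads in each Vil-Cre:NDI1 library, so the libraries match their genotype labels. Vil-Cre 5 stood apart from the other mice. The summed normalized counts of 11 enterocyte markers were 367699 in this mouse and 522384 to 727439 in the other 9. All 11 enterocyte markers were above 0 in every mouse and their sums overlapped between the genotypes (two-sided exact permutation p = 0.111). Many estimates moved with Vil-Cre 5, and for some of them values without it are given below.

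The 32 genes spanned a wide range of expression. To compare genes, the normalized count was divided by the length of the gene's merged exons in kilobases. On this per-kilobase scale the malate dehydrogenases, which interconvert malate and oxaloacetate in the cytosol (Mdh1) and the mitochondrion (Mdh2), were highest, at 3263 and 2952 on average over the 10 mice. They were followed by cytosolic glycerol 3-phosphate dehydrogenase Gpd1 at 1902, the 2-oxoglutarate dehydrogenase subunit Ogdh at 1888 and citrate synthase Cs at 1801, all still per kilobase. These levels of Gpd1, Ogdh and Cs differed by less than the SD between mice of each gene. The lowest were the PDH phosphatase catalytic subunits Pdp1 at 10.7 and Pdp2 at 36.8 normalized counts per kilobase. Dividing by the length of the principal transcript instead, which could be done for 29 of the 32 genes, put Mdh2 first at 7223 and Mdh1 second at 3947 per kilobase, so the order of these 2 depends on the length used. On that scale Cs came next at 3556, Me2 was at 2711 where it had been at 986 and Gpd1 stood at 1968, so the order below the malate dehydrogenases moved as well.

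**Figure D1:**
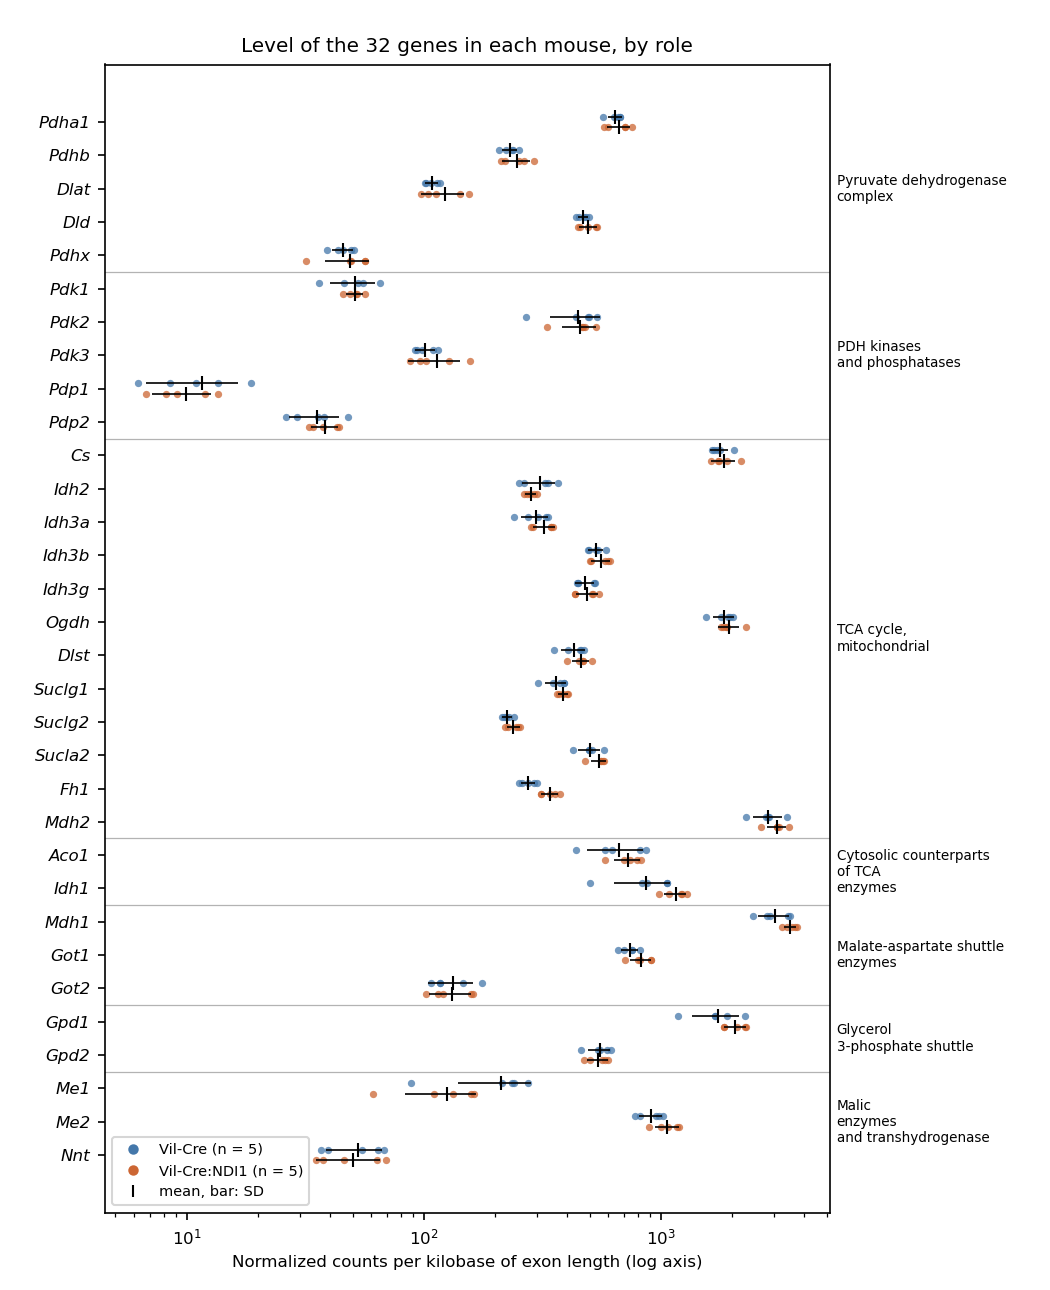
Normalized counts per kilobase of exon length (log axis) of the 32 genes, grouped by role, in each of 5 Vil-Cre (blue) and 5 Vil-Cre:NDI1 (orange) mice, with black ticks for means and bars for the SD. Mdh1 (3263) and Mdh2 (2952) lie at the right end and Pdp1 (10.7) at the left, and within each gene the genotypes overlap except for Fh1.

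None of the 32 genes passed the test between the genotypes. In limma, with Benjamini-Hochberg adjustment over all genes tested, adjusted p values of the 32 ran from 0.998 to 0.999, and 0 of 14300 mouse genes were called (0.0%, or 0.00699% of genes with the NDI1 transgene counted). At an unadjusted p under 0.05 there were 3 of the 32 genes (9.38%, against 4.23% of all mouse genes tested), namely Fh1 and Idh1 with higher and Me1 with lower values in Vil-Cre:NDI1 mice. By direction, 2.12% of all mouse genes reached that level with higher and 2.11% with lower values. DESeq2 and edgeR on the reads of all 10 libraries also called 0 of the 32, with 30 and 0 mouse genes called in all (0.177% and 0.0%). At an unadjusted p under 0.05, DESeq2 had 5 of the 32 genes (4.8% of all mouse genes) and edgeR 3 (4.65%).

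The estimates were small and mostly above 0. The log2 fold change, Vil-Cre:NDI1 over Vil-Cre, was above 0 for 26 of the 32 genes (81.3%, against 51.2% of all mouse genes tested), with a median of 0.09 on the log2(normalized count + 1) scale where the median of all mouse genes was 0.0051. When libraries were scaled to equal totals, 21 of the 32 estimates were above 0 and the median was 0.030 against -0.057 for all genes. Without Vil-Cre 5 the median of the 32 was 0.049. In the same comparison the estimates of 11 of 11 enterocyte markers were above 0 (median 0.24) and those of 0 of 7 goblet markers (median -0.21, two-sided exact permutation p of the sum = 0.0635). Smooth muscle had 1 of 8 markers above 0, T cells 1 of 8, plasma and B cells 0 of 5, Paneth cells 1 of 5, enteric neurons and glia 2 of 5, adipocytes 4 of 8, hepatocytes 0 of 5 and cycling crypt cells 6 of 7. The part of cell composition in the estimates was not tested. The 95% confidence interval lay within a 2-fold change either way for 31 of the 32 genes (79.6% of all mouse genes), the exception being Me1, and within 1.5-fold for 28 of the 32 (53.5% of all mouse genes).

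**Figure D2:**
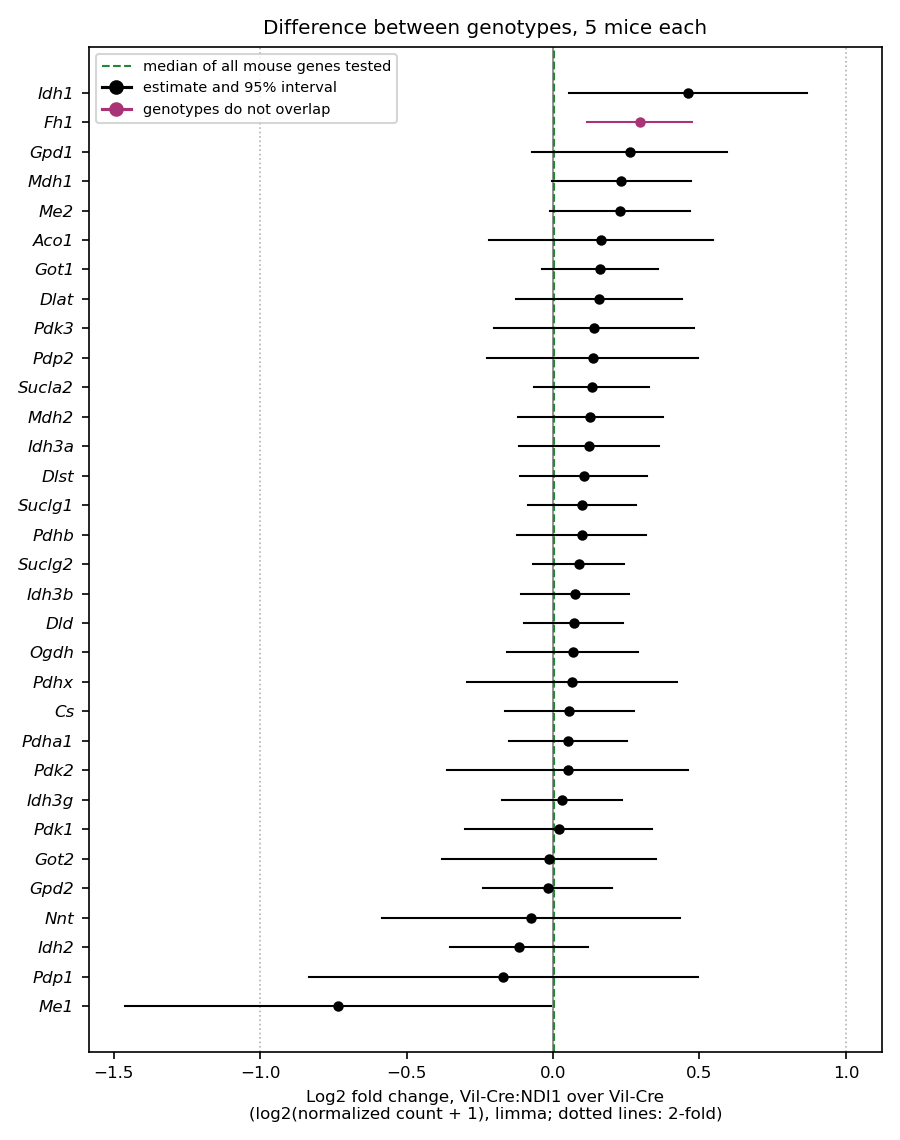
Log2 fold change of each of the 32 genes between Vil-Cre:NDI1 and Vil-Cre mice (limma on log2(normalized count + 1), 5 mice each), with bars for the 95% confidence interval, dotted lines at a 2-fold change and a dashed line at the median of all mouse genes. Estimates run from -0.73 for Me1 to 0.46 for Idh1, and Fh1, in purple, is the gene whose genotypes do not overlap.

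Fh1 had the smallest p of the 32. It encodes fumarate hydratase, which turns fumarate into malate in the mitochondrial cycle and also works in the cytosol, and it lies on the minus strand of chromosome 1, bases 175600374 to 175625635 of GRCm38. Fh1 had 882, 857, 990, 1012 and 931 normalized counts in Vil-Cre mice 1 to 5. It had 1213, 1151, 1267, 1053 and 1060 normalized counts in Vil-Cre:NDI1 mice 1 to 5. Every Vil-Cre:NDI1 mouse was above every Vil-Cre mouse, although the gap between the highest control and the lowest Vil-Cre:NDI1 mouse was narrow. Fh1 was the only gene of the 32 whose genotypes did not overlap (3.13%, against 0.692% of all mouse genes tested, 0.399% in the same direction). The means were 934 ± 66.8 and 1149 ± 93.9 (SD, n = 5 mice each), a log2 fold change of 0.30 with a standard error of 0.082 and a 95% interval from 0.12 to 0.48. The unadjusted limma p was 0.00374 and the adjusted p was 0.998. The two-sided exact permutation p was 0.00794, the smallest that 5 mice against 5 can give. Its unadjusted p was under 0.05 in all 22 alternative analyses, from 4.8e-05 to 0.0263, and its adjusted p with DESeq2 was 0.0778 on 10 libraries.

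The sequence around the RefSeq start of Fh1 (GRCm38.p6, chr1:175625586-175625885, minus strand, 250 bases before to 50 after the start) is shown because this gene had the smallest p and no overlap. Capitals mark matches to the CCAAT box, here read on the opposite strand as ATTGG.
Fh1: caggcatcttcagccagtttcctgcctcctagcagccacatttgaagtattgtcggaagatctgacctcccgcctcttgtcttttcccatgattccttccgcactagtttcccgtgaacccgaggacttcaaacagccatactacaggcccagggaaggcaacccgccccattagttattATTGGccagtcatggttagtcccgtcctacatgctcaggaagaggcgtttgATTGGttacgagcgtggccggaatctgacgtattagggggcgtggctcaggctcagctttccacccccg

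Of the other 11 mitochondrial genes of the cycle, 10 had estimates above 0 and all overlapped between the genotypes. Citrate synthase Cs, which forms citrate in the first step, had 10195 ± 899 normalized counts in Vil-Cre and 10616 ± 1231 in Vil-Cre:NDI1 mice (SD, n = 5 each), a log2 fold change of 0.06. The catalytic subunit of the NAD-dependent isocitrate dehydrogenase, Idh3a, had a log2 fold change of 0.12, and its partner subunits Idh3b and Idh3g had 0.08 and 0.03. Per kilobase, Idh3b stood at 545, Idh3g at 483 and Idh3a at 309 normalized counts. Idh2, the NADP-dependent mitochondrial isocitrate dehydrogenase, was the single gene of the mitochondrial cycle with an estimate below 0, at -0.12.

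The 2-oxoglutarate dehydrogenase complex converts 2-oxoglutarate to succinyl-CoA. Its subunits Ogdh and Dlst had log2 fold changes of 0.07 and 0.10, with a standard error of 0.10 each. Without Vil-Cre 5 these were 0.0045 and 0.037. Ogdh had 9744 to 10977 normalized counts in 4 of the Vil-Cre mice and 8430 in Vil-Cre 5. It had 9745 to 10335 in 4 of the Vil-Cre:NDI1 mice and 12432 in Vil-Cre:NDI1 5, so the spread of this gene came from 1 mouse of each genotype. The succinyl-CoA ligase subunits, which release succinate and make GTP or ATP, had similar values in all mice. Suclg2, the GTP-forming subunit, had 990 to 1172 normalized counts over all 10 mice and an SD within genotypes of 0.079 on the log2 scale, the smallest of the 32. The shared subunit Suclg1 and the ATP-forming Sucla2 had log2 fold changes of 0.10 and 0.13. Mdh2, which closes the cycle, had 8149 to 12099 normalized counts in Vil-Cre and 9393 to 12289 in Vil-Cre:NDI1 mice, a log2 fold change of 0.13. Without Vil-Cre 5 the log2 fold change of Mdh2 was 0.054.

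The PDH complex showed no call in any of its 5 subunits. All 5 estimates were above 0, from 0.05 to 0.16 on the log2 scale, but Pdha1 turned to -0.010 with equal totals and Pdhx to between -0.013 and -0.0035 in count tests on 7 or 8 libraries. Pdha1, the E1 alpha subunit that binds pyruvate and is the target of the kinases, had 2391 ± 160 normalized counts in Vil-Cre and 2488 ± 285 in Vil-Cre:NDI1 mice (SD, n = 5 each). Per kilobase, Pdha1 was at 653, the E3 subunit Dld at 481, the E1 beta subunit Pdhb at 239, the E2 subunit Dlat at 115 and the E3-binding subunit Pdhx at 47.1 normalized counts. Each step of this order was larger than the SD between mice of either neighbour. Dld also serves the 2-oxoglutarate dehydrogenase complex. Dlat had the largest log2 fold change of the 5, at 0.16 with a standard error of 0.13. It had 492 to 571 normalized counts in Vil-Cre mice, while Vil-Cre:NDI1 1 and 3 had 692 and 759 and Vil-Cre:NDI1 2, 4 and 5 had 549, 477 and 511. The Vil-Cre:NDI1 mice thus reached both above and below the controls.

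Among the kinases that phosphorylate and inactivate PDH, Pdk2 was the most abundant of the 3 followed here, at 451 normalized counts per kilobase against 108 for Pdk3 and 51.1 for Pdk1. None differed between the genotypes beyond the spread, with log2 fold changes of 0.02 for Pdk1, 0.05 for Pdk2 and 0.14 for Pdk3. The signs for Pdk1 and Pdk2 turned with equal totals, to -0.043 and -0.013, and that for Pdk3 in count tests on 7 libraries, to -0.052 with DESeq2. The sign for Pdk2 also turned without Vil-Cre 5, to -0.12. Pdk2 had 1384 to 1705 normalized counts in 4 of the Vil-Cre mice and 849 in Vil-Cre 5. In Vil-Cre:NDI1 mice it had 1049 to 1689, the lowest in Vil-Cre:NDI1 4.

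The phosphatases that reactivate PDH were the 2 least abundant genes per kilobase. Pdp1 had 28.0, 84.3, 49.1, 38.4 and 61.2 normalized counts in Vil-Cre mice 1 to 5. It had 30.4, 41.0, 36.8, 60.7 and 54.0 in Vil-Cre:NDI1 mice 1 to 5. The genotypes overlapped throughout, and the highest and lowest mouse, both controls, were 3.01-fold apart. Pdp2 had 203, 166, 215, 271 and 150 normalized counts in Vil-Cre mice 1 to 5 and 249, 186, 195, 214 and 244 in Vil-Cre:NDI1 mice 1 to 5, again with overlap. The log2 fold changes were -0.17 with a standard error of 0.30 for Pdp1 and 0.14 with a standard error of 0.16 for Pdp2. The sign for Pdp1 turned to 0.025 without Vil-Cre 2. Without Vil-Cre 5 the estimate for Pdp2 was 0.037.

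Idh1 had the largest positive log2 fold change. It encodes the NADP-dependent isocitrate dehydrogenase of cytosol and peroxisomes, a source of cytosolic NADPH, and lies on the minus strand of chromosome 1, bases 65158616 to 65186500. Idh1 had 2304, 2417, 2944, 2938 and 1385 normalized counts in Vil-Cre mice 1 to 5. It had 3382, 3354, 3571, 2717 and 2986 normalized counts in Vil-Cre:NDI1 mice 1 to 5. Vil-Cre:NDI1 4 lay among the controls, the other Vil-Cre:NDI1 mice were above all of them, and Vil-Cre 5 was far below every other mouse. The means were 2398 ± 638 and 3202 ± 344 (SD, n = 5 mice each), a log2 fold change of 0.46 with a standard error of 0.19 (unadjusted limma p = 0.0300, adjusted p = 0.998, two-sided exact permutation p = 0.0317). Leaving out Vil-Cre 5 lowered the estimate to 0.27, with an unadjusted limma p of 0.0324. All 11 enterocyte markers also had positive log2 fold changes in the same comparison, with a median of 0.24 and 0 of 11 at an unadjusted p under 0.05, and Vil-Cre 5 was lowest in their sum as well. The part of enterocyte content in the Idh1 values was not tested.

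The window at the RefSeq start of Idh1 nearest to the 5′ end of the annotated gene (GRCm38.p6, chr1:65186430-65186729, minus strand, 250 bases before to 50 after) is shown with its CCAAT box in capitals.
Idh1: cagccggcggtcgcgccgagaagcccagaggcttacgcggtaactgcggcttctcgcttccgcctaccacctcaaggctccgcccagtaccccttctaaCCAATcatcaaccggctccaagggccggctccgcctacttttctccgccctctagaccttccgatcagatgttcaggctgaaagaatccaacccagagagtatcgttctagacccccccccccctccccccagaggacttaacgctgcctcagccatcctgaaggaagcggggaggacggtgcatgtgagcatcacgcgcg

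Aco1, the cytosolic aconitase that also serves as an iron-regulatory protein, had 1963 to 3868 normalized counts in Vil-Cre and 2621 to 3682 in Vil-Cre:NDI1 mice. Like Idh1 it was lowest in Vil-Cre 5, but the highest value was that of Vil-Cre 3, so the genotypes overlapped fully. Its log2 fold change was 0.16 with a standard error of 0.17, and 0.023 without Vil-Cre 5.

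The enzymes of the malate-aspartate shuttle were led by Mdh1, which makes malate in the cytosol and so oxidizes cytosolic NADH. Mdh1 had 7163, 7411, 8986, 8841 and 6261 normalized counts in Vil-Cre mice 1 to 5. It had 9177, 8685, 9569, 8270 and 9399 normalized counts in Vil-Cre:NDI1 mice 1 to 5. In this gene 3 Vil-Cre:NDI1 mice were above all controls, and Vil-Cre:NDI1 2 and 4 lay below Vil-Cre 3 and 4. The log2 fold change was 0.23 with a standard error of 0.11 (unadjusted limma p = 0.0536, adjusted p = 0.998, two-sided exact permutation p = 0.0714), and 0.16 without Vil-Cre 5. Its mitochondrial counterpart Mdh2 had, mouse by mouse, 9879, 10096, 12099, 10150 and 8149 normalized counts in Vil-Cre and 10965, 11185, 10960, 9393 and 12289 in Vil-Cre:NDI1 mice. The aspartate aminotransferases differed in level, with the cytosolic Got1 at 781 and the mitochondrial Got2 at 132 normalized counts per kilobase. Got1 had a log2 fold change of 0.16 with a standard error of 0.09. Got2 had -0.01, a sign that turned when some single mice were left out and reached 0.21 with DESeq2 on 8 libraries.

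In the glycerol 3-phosphate shuttle, the cytosolic Gpd1 makes glycerol 3-phosphate from NADH and the mitochondrial Gpd2 passes its electrons to ubiquinone, by-passing complex I as NDI1 does. Gpd1 had 5020, 4997, 6698, 5630 and 3505 normalized counts in Vil-Cre mice 1 to 5. It had 6735, 6175, 5431, 5448 and 6665 normalized counts in Vil-Cre:NDI1 mice 1 to 5. The genotypes overlapped from 5431 to 6698, and Vil-Cre 5 was again lowest. The log2 fold change of Gpd1 was 0.26 with a standard error of 0.15 (unadjusted limma p = 0.113, two-sided exact permutation p = 0.151), and 0.13 without Vil-Cre 5. Gpd2 had 3003 to 4028 normalized counts in Vil-Cre and 3088 to 3925 in Vil-Cre:NDI1 mice, a log2 fold change of -0.02 with a 95% interval from -0.24 to 0.20. Gpd1 is abundant in fat, and the 9 adipocyte markers summed to 1323 to 4343 normalized counts in Vil-Cre and 1874 to 3363 in Vil-Cre:NDI1 mice. Cidec was the largest part of this sum in every mouse, so the sum need not follow fat content, as described for Me1 below. Across the 10 mice, Gpd1 and the adipocyte sum had r = 0.19 (permutation p = 0.613, 0.613 adjusted over 3 relations) and rho = -0.26 (permutation p = 0.468, 0.702 adjusted). Without the 2 mice farthest from the median sum, r was -0.69, so the weak pooled value rested on those mice. Within the genotypes r was 0.36 in Vil-Cre and -0.65 in Vil-Cre:NDI1 mice, with 5 mice each. The last of the 3 relations, Cs with the enterocyte sum, had r = 0.49 (permutation p = 0.165, 0.276 adjusted) and rho = 0.067 (permutation p = 0.864, 0.864 adjusted), with r = -0.50 without the 2 mice farthest from the median sum. Within the genotypes it was 0.26 and 0.81.

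Me1 had the largest difference and the largest spread of the 32. It encodes the cytosolic NADP-dependent malic enzyme, which turns malate into pyruvate and supplies NADPH for fatty acid synthesis, and lies on the minus strand of chromosome 9, bases 86581371 to 86695953. Me1 had 922, 905, 821, 341 and 1059 normalized counts in Vil-Cre mice 1 to 5. It had 235, 607, 626, 423 and 509 normalized counts in Vil-Cre:NDI1 mice 1 to 5. Of the Vil-Cre mice 4 were above every Vil-Cre:NDI1 mouse, but Vil-Cre 4 was lower than all Vil-Cre:NDI1 mice except 1. The means were 809 ± 276 and 480 ± 159 (SD, n = 5 mice each), a log2 fold change of -0.73 with a standard error of 0.33 and a 95% interval from -1.46 to -0.01. The unadjusted limma p was 0.0481, the adjusted p was 0.998 and the two-sided exact permutation p was 0.111. Leaving out 1 mouse moved the estimate from -0.50, without Vil-Cre:NDI1 1, to -1.02, without Vil-Cre 4. Without Vil-Cre 5 the estimate was -0.61, with an unadjusted limma p of 0.109.

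The window at the RefSeq start of Me1 nearest to the 5′ end of the annotated gene (GRCm38.p6, chr9:86695865-86696164, minus strand) is shown with its match to TGACNNNGC, the core of the antioxidant response element, in capitals.
Me1: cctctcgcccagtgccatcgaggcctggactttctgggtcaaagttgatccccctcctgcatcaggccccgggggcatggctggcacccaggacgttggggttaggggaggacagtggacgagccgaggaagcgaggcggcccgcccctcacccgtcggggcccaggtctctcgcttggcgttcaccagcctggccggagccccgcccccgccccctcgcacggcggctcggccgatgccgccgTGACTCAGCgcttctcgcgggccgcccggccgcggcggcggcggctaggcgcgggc

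Me1 is also active in fat, so its values were set against the adipocyte markers. Across the 10 mice, Me1 and the adipocyte sum had r = 0.46 (permutation p = 0.184, 0.276 adjusted over 3 relations) and rho = 0.48 (permutation p = 0.165, 0.495 adjusted). Vil-Cre 5, with the highest Me1 value and the second lowest adipocyte sum, lay off this relation. Without it r was 0.83, given with no test because the mouse was set aside for lying off the relation. Leaving out other single mice gave values down to 0.30, and without the 2 mice farthest from the median sum r was 0.88. Within the genotypes r was 0.54 in Vil-Cre and 0.75 in Vil-Cre:NDI1 mice, with 5 mice each. The adipocyte sum was 1874 in Vil-Cre:NDI1 1, the mouse with the lowest Me1 value, 1323 in Vil-Cre 4, the next lowest, and 1497 in Vil-Cre 5. Of these sums Cidec alone made up 1494, 1103 and 922. The adipocyte sums themselves overlapped between genotypes (two-sided exact permutation p = 0.960), with 4 of 9 markers at 0 in some mouse. The sum of 9 hepatocyte markers spanned 60.7 to 1459 normalized counts in Vil-Cre mice and 56.5 to 124 in the other genotype, with 5 of the 9 at 0 in some mouse (two-sided exact permutation p = 0.0556). The hepatocyte sum was 1459, 541 and 951 in Vil-Cre 1, 3 and 5 and 186 and 60.7 in Vil-Cre 2 and 4. Of the 5 hepatocyte markers tested, all had estimates below 0, as Me1 did, with a median of -1.41. Of these, 3 had an unadjusted limma p under 0.05 (against 4.23% of all mouse genes tested). Most goblet, smooth muscle, T cell, plasma and B cell and Paneth markers also had estimates below 0. The part of fat or liver RNA in the genotype difference of Me1 was not tested.

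**Figure D3:**
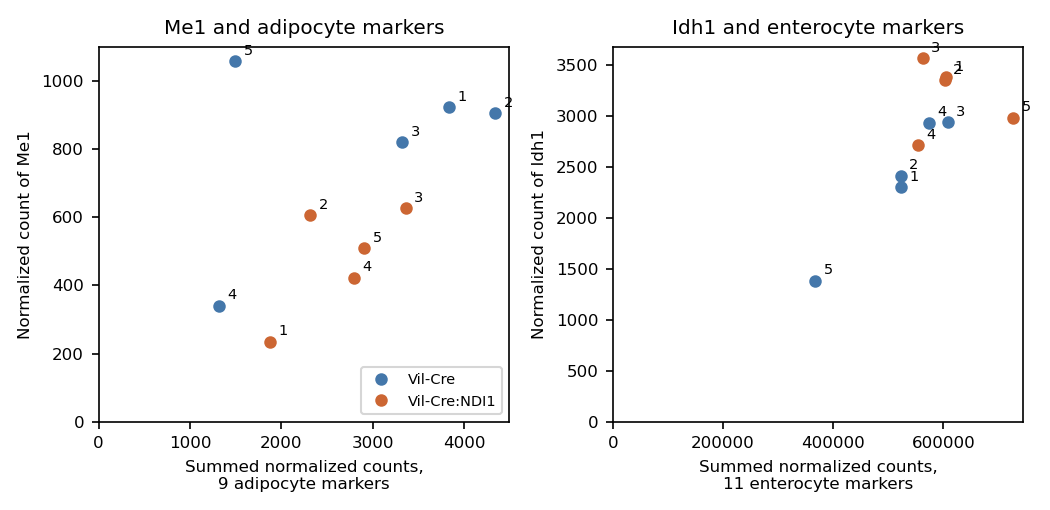
Left, normalized counts of Me1 against the summed normalized counts of 9 adipocyte markers, and right, normalized counts of Idh1 against the sum of 11 enterocyte markers, with 1 point per mouse, numbered by replicate (blue, Vil-Cre; orange, Vil-Cre:NDI1). Vil-Cre 5 has the highest Me1 value (1059) at a low adipocyte sum (1497), and the lowest Idh1 value (1385) at the lowest enterocyte sum (367699). Cidec is the largest part of the adipocyte sum in every mouse.

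Me2, the mitochondrial NAD-dependent malic enzyme, was far more abundant than Me1, at 986 against 168 normalized counts per kilobase of merged exons, and 2711 against 196 per kilobase of the principal transcript. Me2 had 5655 to 7387 normalized counts in Vil-Cre and 6469 to 8616 in Vil-Cre:NDI1 mice, a log2 fold change of 0.23 with a standard error of 0.11 (unadjusted limma p = 0.0595, two-sided exact permutation p = 0.0794). The genotypes overlapped, with 2 Vil-Cre:NDI1 mice below the highest control. Nnt, the transhydrogenase of the inner mitochondrial membrane that makes NADPH from NADH, was among the most variable of the 32. It had 278, 449, 258, 477 and 385 normalized counts in Vil-Cre mice 1 to 5 and 445, 246, 265, 323 and 486 in Vil-Cre:NDI1 mice 1 to 5. High and low mice occurred in both genotypes alike, and the log2 fold change was -0.07 with a standard error of 0.23. C57BL/6J mice are known to carry a deletion within Nnt, and counts summed over a gene do not show which exons were read.

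The ratio of the cytosolic to the mitochondrial enzyme, or of alternative isozymes, was compared within each mouse for 8 pairs, since a ratio does not depend on how libraries are scaled. None of the 8 passed after adjustment over the pairs, and all overlapped between the genotypes. The Idh1/Idh2 ratio of normalized counts was 2.42, 2.81, 4.50, 3.51 and 2.02 in Vil-Cre mice 1 to 5 and 4.95, 4.76, 4.73, 3.49 and 4.12 in Vil-Cre:NDI1 mice 1 to 5. The mean log2 difference was 0.58 (two-sided exact permutation p = 0.0397, 0.254 adjusted over the 8 pairs). Without Vil-Cre 5 this difference was 0.44 (two-sided exact permutation p = 0.0794, 0.339 adjusted). The Me1/Me2 ratio was 0.130, 0.131, 0.139, 0.0461 and 0.187 in Vil-Cre mice and 0.0303, 0.0837, 0.0968, 0.0491 and 0.0600 in Vil-Cre:NDI1 mice, a mean log2 difference of -0.96 (two-sided exact permutation p = 0.0635, 0.254 adjusted). In both ratios Vil-Cre:NDI1 mice lay to one side except where Vil-Cre 3 or 4 lay among them.

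The shuttle ratios were closer. Mdh1/Mdh2 was 0.725 to 0.871 in Vil-Cre and 0.765 to 0.881 in Vil-Cre:NDI1 mice, a mean log2 difference of 0.11 (two-sided exact permutation p = 0.111, 0.296 adjusted). Got1/Got2 was 1.98 to 3.44 and 2.74 to 4.11, and Gpd1/Gpd2 was 0.971 to 2.23 and 1.39 to 2.18, with mean log2 differences of 0.17 and 0.28 and exact permutation p adjusted over the pairs of 0.624 and 0.540. Sucla2/Suclg2, Pdk1/Pdk2 and Pdp1/Pdp2 had mean log2 differences of 0.044, -0.031 and -0.30, with exact permutation p adjusted over the pairs of 0.789, 0.889 and 0.624. The signs for Sucla2/Suclg2 and Pdk1/Pdk2 turned without Vil-Cre 5, to -0.0086 and 0.18.

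**Figure D4:**
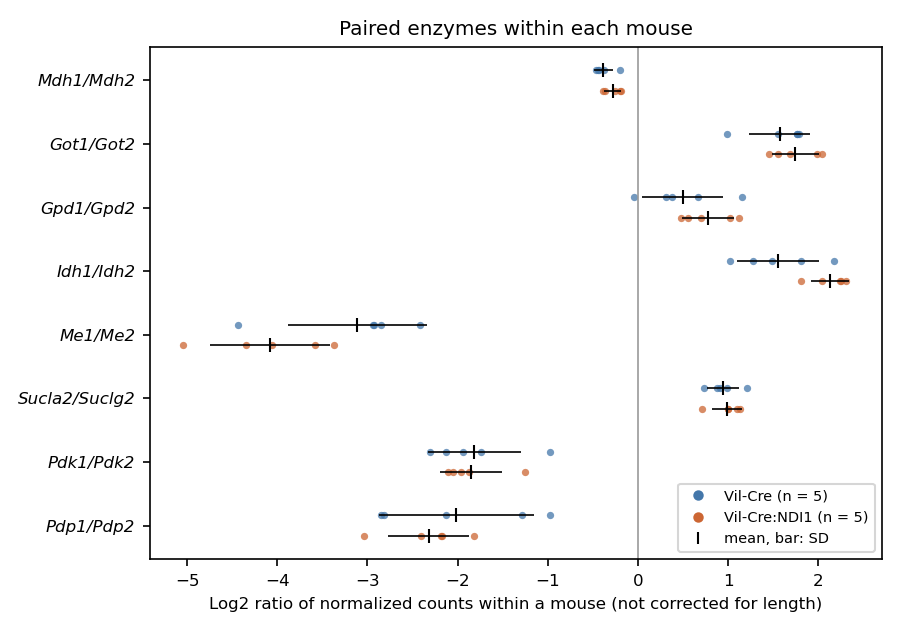
Log2 ratio of the normalized counts of 8 enzyme pairs within each mouse (blue, 5 Vil-Cre; orange, 5 Vil-Cre:NDI1), with ticks for means and bars for the SD. The largest shifts are those of Idh1/Idh2 (0.58) and Me1/Me2 (-0.96), and the points of the genotypes overlap in every pair.

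The 32 genes varied little between mice. The median SD within genotypes was 0.17 on the log2 scale, where it was 0.24 for the 10869 tested genes in the same range of mean counts. That range ran from 48.4 (Pdp1) to 10516 (Mdh2), and genes were not matched by level within it. The part of expression level in the smaller SD was not tested. For 28 of the 32 genes the highest and lowest of the 10 mice were less than 2-fold apart. The exceptions were Me1 at 4.50-fold, Pdp1 at 3.01-fold, Idh1 at 2.58-fold and Pdk2 at 2.01-fold. The mice with the highest and lowest values were counted for the 32 genes only. The same counts over all mouse genes were not made, so whether they are particular to the 32 was not tested. The lowest value of 24 of the 32 genes was in a Vil-Cre mouse, and 15 of these were in Vil-Cre 5. Without Vil-Cre 5, the lowest value was in a Vil-Cre mouse for 18 of the 32. The highest value of 22 genes was in a Vil-Cre:NDI1 mouse, 15 of them in Vil-Cre:NDI1 1 or 3 and 5 in Vil-Cre:NDI1 5 (Cs, Ogdh, Dlst, Mdh2 and Nnt), the mouse with the highest enterocyte sum.

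**Figure D5:**
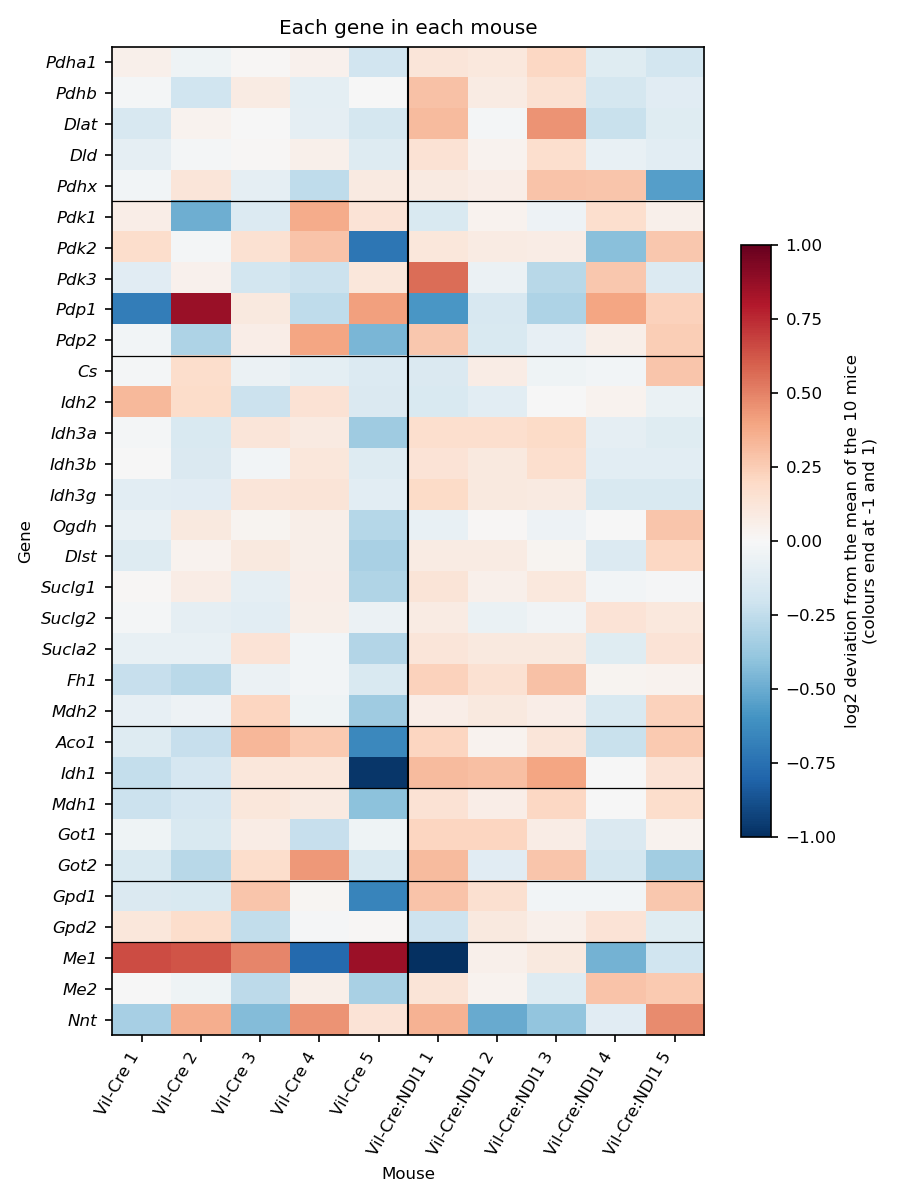
Log2 deviation of each of the 32 genes (vertical axis) in each of the 10 mice (horizontal axis) from the mean of the 10 mice, with red above and blue below and the colours ending at -1 and 1. The column of Vil-Cre 5 is mostly blue, with 15 genes at their lowest there, and Me1 has the widest range.

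At the starts of these genes, 27 of the 32 matched RefSeq promoter windows, 37 in all, of 250 bases before to 50 after a start. Motifs were searched on both strands, and no match overlapped another in the 3 windows printed above. CCAAT was found in 16 of the 27 genes (59.3%, against 41.1% of all 27025 genes with a window) and TGACNNNGC in 6 (22.2%, against 14.0%). The estrogen-related receptor site AAGGTCA was in Ogdh and Got1 (7.41%, against 5.38%) and the core site of NRF1 in Dld and Sucla2 (7.41%, against 5.19%). The E-box CACGTG was in Pdk2, Pdp2 and Ogdh (11.1%, against 8.09%). The cyclic AMP response element TGACGTCA was in Ogdh and Mdh2 (7.41%, against 2.03%). The TATA box TATAAA was in Got2 (3.70%, against 15.7%), and the sterol regulatory element TCACNCCAC in none (against 1.44%). The windows had a median GC content of 61.0% against 52.7% for all windows. A match of letters is a description and not evidence of binding.

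Other genes of the pathway were taken from a list of 39 (remaining subunits of the cycle, mitochondrial carriers, pyruvate and lactate enzymes and cofactor assembly), of which 37 passed the filter on low counts. None of the 37 was called by limma, and their median log2 fold change was 0.052. Of the 37, 25 had estimates above 0 (67.6%, against 51.2% of all mouse genes tested). Slc25a1, the mitochondrial citrate carrier, was the only 1 with an unadjusted limma p under 0.05 (2.70%, against 4.23% of all mouse genes tested). It had 1469, 1327, 1722, 1470 and 1490 normalized counts in Vil-Cre mice 1 to 5 and 1558, 1800, 1713, 1793 and 1715 in Vil-Cre:NDI1 mice 1 to 5. Vil-Cre 3 lay among the Vil-Cre:NDI1 mice and the other controls below them all. The log2 fold change was 0.20 with a standard error of 0.081 (unadjusted limma p = 0.0304, adjusted p = 0.998, two-sided exact permutation p = 0.0317).

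In a DESeq2 test that left out Vil-Cre 3 and Vil-Cre 4, 4 of the 32 genes passed. With DESeq2 on these 8 libraries, where 1.76% of mouse genes were called, the log2 fold changes were 0.37 for Fh1 (adjusted p = 0.00848), 0.65 for Idh1 (adjusted p = 0.0220), 0.38 for Mdh1 (adjusted p = 0.00463) and -1.0 for Me1 (adjusted p = 0.0124). At an unadjusted p under 0.05 there were 10 of the 32 with DESeq2 (8.11% of mouse genes) and 6 with edgeR (8.73%). With edgeR on the same 8 libraries none of the 32 was called, and the adjusted p was 0.401 for Fh1, Mdh1 and Me1 and 0.427 for Idh1. These 2 libraries were left out because the value of 1 read is near 1 in them, although their values too were whole multiples of it. They held the 2 highest control values of Fh1, Idh1 and Mdh1, and Vil-Cre 4 held the lowest control value of Me1. In Vil-Cre:NDI1 1, which has the lowest Me1 value, the value of 1 read also lies within 2% of 1. With DESeq2 on the 7 libraries without it, where 1.36% of mouse genes were called, Fh1 (0.35, adjusted p = 0.0384), Mdh1 (0.37, adjusted p = 0.0250) and Me1 (-0.83, adjusted p = 6.19e-05) passed and Idh1 did not (0.63, adjusted p = 0.0595). At an unadjusted p under 0.05 there were 6 of the 32 with DESeq2 (7.52% of mouse genes) and 6 with edgeR (7.48%). Slc25a1 passed in this DESeq2 test as well (0.30, adjusted p = 0.0163). With edgeR on the 7 libraries 0 of the 32 were called (0.00681% of mouse genes). The calls thus differed by tool and by the libraries compared.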

How the data were processed

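Jejunal RNA of 10 mice was compared as 1 library per mouse. After trimming, the authors mapped single-end reads with STAR to a GRCm38 genome extended by NDI1 and quantified genes with Salmon. They deposited normalized counts, a signal equal to reads divided by DESeq2 size factors. The annotation release and strand setting are not given in the sources used here, so values of Pdha1, Idh3b, Mdh1, Got2, Gpd1, Gpd2 and Me1, which overlap genes on the opposite strand, are uncertain. In each library 100% of non-zero values were whole multiples (within 0.01) of the value of 1 read. For Vil-Cre 3 and Vil-Cre 4 that value lies near 1, at 1.0018 and 1.0111, so count tests were run on 10 and on 8 libraries. Large values in them were still not whole numbers, such as 2453.51 for Pdha1 in Vil-Cre 3, so rounding does not account for the multiples. In Vil-Cre:NDI1 1 the value of 1 read, 0.9802, also lies within 2% of 1, so tests on 7 libraries were added. Between replicates the chi-square per gene was 13.2 to 61.9, above sampling noise, so none was a duplicate.

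Genotypes were compared with limma 3.58.1 (R 4.3.3) on log2(value + 1), with a variance trend, over genes with at least 10 normalized counts in at least 5 mice, and Benjamini-Hochberg adjustment over 14301 genes at 0.05. This scale understates changes of low genes. Exact permutation tests were two-sided over all 252 assignments of the mice, and correlations used 100000 permutations. Recovered reads were tested with DESeq2 1.42.0 and edgeR 4.0.16. Other settings were pseudocounts of 0.1 and 8, other filters, equal totals, a replicate block, principal transcript lengths and leaving out each mouse. The scripts were tested on simulated data. Exon lengths came from GENCODE M21 (GRCm38). The members and lists were chosen with earlier results of these data known. Values per mouse are given for genes at an unadjusted p under 0.05 or not overlapping (with fewer than 4, the 4 with the smallest p), the 2 highest and 2 lowest per kilobase, the 3 most variable, the ratio pairs and pathway genes at an unadjusted p under 0.05. Those of Gpd1 and Pdp2 and the ranges of other members and of Pdk4 were added for description. Of the marker lists, 1 Paneth gene was not found in the table.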

Additional observations from a re-analysis of the deposited data

Results flagged for a closer look

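In 3 of 80 groups of 5 mice tested, 1 mouse lay apart from the others of its genotype by Dixon's test at the 95% level, where chance gives about 4. The normalized count of Ogdh in Vil-Cre:NDI1 5 was 12400 to 3 digits, where the 4 other mice of that genotype had 9745 to 10335. The normalized count of Sucla2 in Vil-Cre:NDI1 4 was 1910, against 2230 to 2288 in the others. The Pdk1/Pdk2 ratio in Vil-Cre:NDI1 4 was 0.42, against 0.233 to 0.273 in the others.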

How the results depend on the processing

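Over 22 alternatives, the count of genes called by limma, 1 (the NDI1 transgene), was 2 with a filter at 50 normalized counts, 31 with DESeq2, 276 with DESeq2 on 8 libraries, 216 with DESeq2 and 2 with edgeR on 7 libraries, and 1 to 3 with a mouse left out. The count among the 32 genes stayed at 0 except for 4 (Fh1 0.37, Idh1 0.65, Mdh1 0.38, Me1 -1.0) with DESeq2 on 8 libraries and 3 (Fh1 0.35, Mdh1 0.37, Me1 -0.83) with DESeq2 on 7, where 1 pathway gene was also called. The tests on 8 and 7 libraries were chosen after seeing the data. The count at an unadjusted p under 0.05, 3, was 5 with DESeq2, 10 with DESeq2 and 6 with edgeR on 8 libraries, 6 with either tool on 7, and 1 to 5 with a mouse left out (1 without Vil-Cre 1 or Vil-Cre:NDI1 1, 5 without Vil-Cre 4). Log2 fold changes near 0 turned sign with equal totals for Pdha1 (-0.010), Pdk1 (-0.043), Pdk2 (-0.013), Cs (-0.0075) and Idh3g (-0.032). They turned with DESeq2 for Pdk1 (-0.0059), with edgeR for Pdk1 (-0.017), with edgeR on 8 libraries for Pdhx (-0.0047) and Got2 (0.20), and with DESeq2 on 8 libraries for Got2 (0.21). On 7 libraries, DESeq2 and edgeR gave -0.0035 and -0.013 for Pdhx, -0.052 and -0.061 for Pdk3 and 0.12 and 0.12 for Got2. With a mouse left out, signs turned within these ranges: Pdk1 -0.10 to 0.12, Pdk2 -0.12 to 0.16, Pdp1 -0.36 to 0.025, Cs -0.0081 to 0.11, Idh3g -0.013 to 0.073, Got2 -0.095 to 0.094, Gpd2 -0.083 to 0.032, Nnt -0.20 to 0.042, Sucla2/Suclg2 -0.0086 to 0.11 and Pdk1/Pdk2 -0.18 to 0.18. The correlation with adipocyte markers ran from -0.39 to 0.32 for Gpd1 and from 0.30 to 0.83 for Me1, each extreme value (-0.39 and 0.83) without Vil-Cre 5. The causes were not tested.

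Replicate numbers did not pair the mice (correlations of same-numbered deviations from -0.12 to 0.14, with 1 of 5 numbers correlating best with its own), and with a replicate block 1 gene and 0 of the 32 were called. The pairing changed no call.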
